A study of Mus musculus with 32 samples.

Results

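The genes described are Utp14a, Las1l and Ftsj1, 3 of the 1006 X-linked symbols listed in 4 tables of allele-resolved expression from mouse XEN lines (extraembryonic endoderm stem cells). They were selected by name, after earlier results of these data had shown all 3 to be expressed from the inactive X, so their levels on that chromosome describe them and are not a finding. All 3 were among the 233 genes whose summed Xa and Xi level averaged 1 FPKM or more in each table, the filter used throughout. FPKM is a fragment count scaled by transcript length and sequencing total, Xa is the active and Xi the inactive X, and the Xi share is the Xi level in percent of Xa plus Xi.

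Every line is a cross of 129S1/SvImj X JF1/Ms, whose sequence differences let the authors separate the alleles. The groups of the first table were 3 WT samples, 4 XistpA samples, 2 XRR KO samples from 2 clones and 3 XRRa KO samples. The second table held 2 samples each of XRRb XaKO, XRRb XiKO, XRRc XaKO and XRRc XiKO. The third held Rad21 degron cells with 4 DMSO and 4 dTAG samples from 2 clones, and the fourth Ctcf degron cells with 2 samples each of DMSO and dTAG, treated for 48 h. The Rad21 labels give no treatment time. The compound dTAG directs a protein carrying its tag to degradation, and DMSO is the solvent control. The labels do not say what XistpA, XRR or its parts a, b and c are, nor which clone carries which change, and XaKO and XiKO are used here as given. Each gene has 1 merged FPKM value for a group and allele, so no value has an SD, no difference has a replicate check or p-value, and the sequencing depth is unknown. Tables may have been normalized separately, so levels are compared within a table. Only shares, ranks and within-table changes are set side by side across tables. The autosomal endoderm markers Gata4, Gata6, Sox17, Sox7, Dab2 and Foxa2 are in 0 of the 4 tables, which hold X-linked genes, so the cell type could not be checked by them.

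In female mammals most genes of 1 X chromosome are silenced under the noncoding RNA Xist, and genes that remain transcribed there are called escape genes. The 3 genes act on noncoding RNA of the translation machinery. Utp14a encodes a nucleolar protein of the small subunit processome, which assembles on the precursor of 18S ribosomal RNA. Las1l encodes the endonuclease that cuts the second internal spacer of the ribosomal RNA precursor during maturation of the large subunit, and Ftsj1 encodes a methyltransferase that modifies the ribose of nucleotides in the anticodon loop of tRNAs. Loss of human FTSJ1 causes an X-linked intellectual disability.

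The 250 bases upstream of each gene's start are shown as a description of the 3 genes, and a link to their Xi levels was not tested. The sequences are RefSeq reference sequence of build GRCm38.p6, not read from these cells, and all 3 genes matched the promoter table. They lie on chromosome X, Utp14a on the plus strand and Las1l and Ftsj1 on the minus strand, and capitals mark CpG dinucleotides.
Utp14a: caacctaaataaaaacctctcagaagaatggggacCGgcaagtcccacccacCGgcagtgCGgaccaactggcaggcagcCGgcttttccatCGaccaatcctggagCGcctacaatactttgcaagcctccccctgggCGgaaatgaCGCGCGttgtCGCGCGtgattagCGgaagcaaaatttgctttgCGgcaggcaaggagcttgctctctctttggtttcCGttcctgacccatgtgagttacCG
Las1l: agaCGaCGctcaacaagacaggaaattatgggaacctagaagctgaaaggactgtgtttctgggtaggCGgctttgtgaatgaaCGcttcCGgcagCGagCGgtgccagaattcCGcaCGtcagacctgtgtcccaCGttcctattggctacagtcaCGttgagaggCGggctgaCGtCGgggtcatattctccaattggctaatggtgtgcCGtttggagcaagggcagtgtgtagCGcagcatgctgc
Ftsj1: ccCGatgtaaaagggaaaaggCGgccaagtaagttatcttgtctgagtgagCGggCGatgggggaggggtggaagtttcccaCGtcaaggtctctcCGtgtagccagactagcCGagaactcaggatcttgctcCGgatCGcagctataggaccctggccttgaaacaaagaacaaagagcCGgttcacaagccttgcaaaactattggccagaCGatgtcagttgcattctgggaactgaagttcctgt
Coordinates are not given because the authors' build was mm9.

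Over 300 bases, from 250 before to 50 after the start, the Utp14a promoter held 21 CpG dinucleotides, that of Las1l 19 and that of Ftsj1 16. The median of 197 X-linked genes tested in all tables and found in the promoter table was 18, and that of the 26 among them with a WT Xi share of 10% or more was 17.5. The 3 promoters thus lay around the middle of X-linked genes, 123, 102 and 81 of the 197 having fewer CpG dinucleotides than Utp14a, Las1l and Ftsj1. A search on both strands found the ETS letters CCGGAAG once in the Las1l promoter, upstream of the start on the minus strand of the printed sequence, and not in the other 2. Those letters occur in 9.12% of all promoters and 13.7% of the 197. None of the 3 windows held CACGTG (E-box, 7.24% of all promoters), AAGATGGCG (YY1, 1.49%), GCATGCGC (NRF1, 2.80%) or TATAA (TATA box, 25.5%).

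In WT cells the Xi level of Utp14a was 5.94 FPKM beside 12.8 FPKM on Xa, a share of 31.7%. The Ftsj1 levels were 5.37 FPKM (Xi) and 13.6 FPKM (Xa), a share of 28.3%, and those of Las1l 2.12 and 9.24 FPKM (18.6%). These were the 17th, 22nd and 31st highest shares of 270 genes, of which 33 (12.2%) had a share of 10% or more. In the merged bulk samples, a higher Xi level in each cell and a larger portion of cells with Xi expression cannot be told apart.

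Shares in the other groups used as references varied by gene. Las1l had 31.6% in XRRb XaKO, 31.4% in XRRc XaKO, 33.6% in Rad21 degron with DMSO and 21.4% in Ctcf degron with DMSO, so that WT was its lowest of 5. Utp14a had 28.0%, 34.0%, 22.2% and 14.0% in the same order, and WT was its second highest. For Ftsj1 the shares were 27.5%, 25.3%, 19.2% and 43.1%, and WT lay second highest again. The Ctcf table therefore held both the lowest reference share of Utp14a and the highest of Ftsj1. There Ftsj1 with DMSO ranked 158th of 277 genes on Xa and 15th on Xi. In WT it ranked 100th of 270 on Xa and 16th on Xi.

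**Figure D1:**
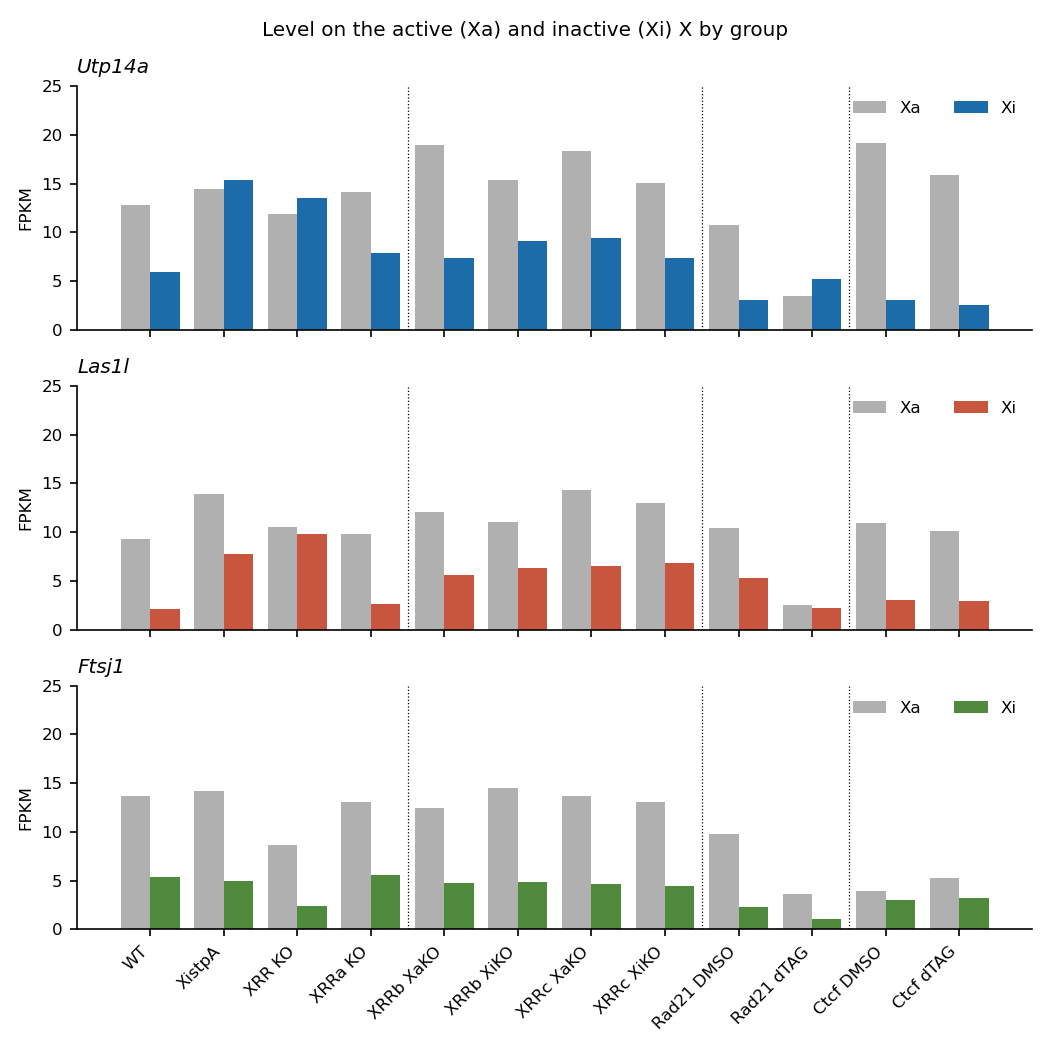
FPKM on Xa (grey) and Xi (coloured) for each gene in the 12 groups, 1 merged value per bar, with dotted lines between the 4 tables. Utp14a on Xi exceeds Xa in XistpA (15.3 against 14.4), XRR KO and Rad21 dTAG, while Ftsj1 on Xi stays below Xa in every group.

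Over all 12 groups none of the 3 genes was listed at 0 on Xi, and every share was 10% or more. Utp14a ranged from 13.6% (Ctcf dTAG) to 60.0% (Rad21 dTAG) with a median of 33.4%, Las1l from 18.6% (WT) to 48.4% (XRR KO) with a median of 32.6%, and Ftsj1 from 19.2% (Rad21 DMSO) to 43.1% (Ctcf DMSO) with a median of 25.8%. The order of the shares was Utp14a, Las1l, Ftsj1 in 5 groups and Las1l, Utp14a, Ftsj1 in 3. Ftsj1 stood above Las1l in WT and XRRa KO and led in both Ctcf groups. With 1 value a group, whether neighbours in these orders differ beyond the spread of samples cannot be said.

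**Figure D2:**
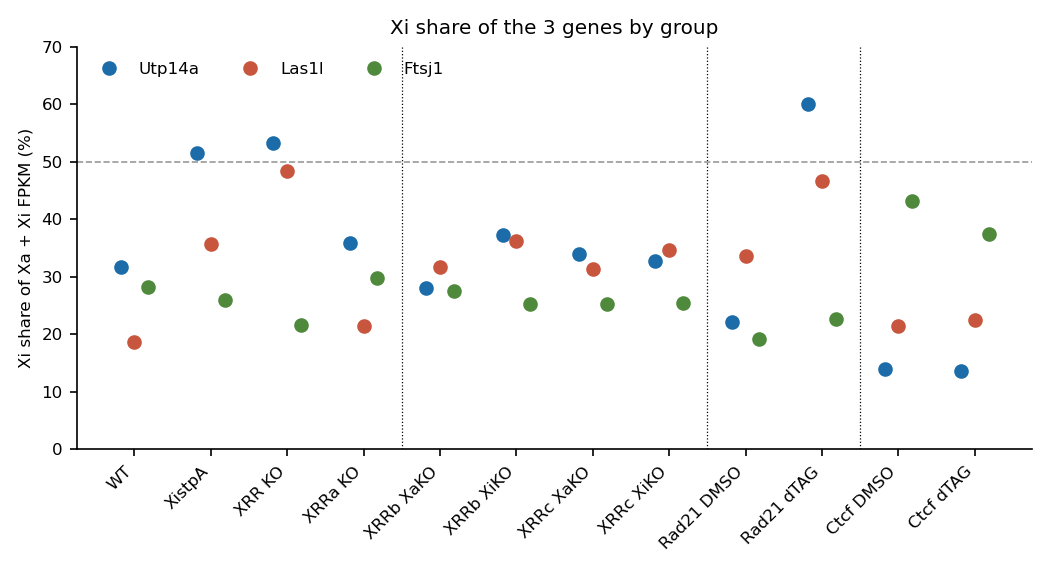
Xi share in percent of Xa plus Xi FPKM for the 3 genes in each group, with dotted lines between tables and a dashed line at 50%. Utp14a lies above the dashed line in XistpA (51.5%), XRR KO (53.3%) and Rad21 dTAG (60.0%), and Ftsj1 is lowest of the 3 in 8 groups.

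XistpA was compared with WT. Xist on Xi was listed at 0 FPKM in XistpA and at 15.5 FPKM in WT. The Xi level of Utp14a rose from 5.94 to 15.3 FPKM, a log2 change of 1.30, where changes are differences of log2(FPKM + 0.5) and 1 or more counts as a rise or fall. Las1l rose on Xi from 2.12 to 7.78 FPKM (1.66), whereas Ftsj1 had 5.37 and 4.99 FPKM (-0.10). Of the 3 genes 2 rose on Xi, where 12.2% of 270 tested genes did, and none fell, as 1.48% of genes did.

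On Xa no member passed the size rule in XistpA, the differences being 0.17 for Utp14a, 0.57 for Las1l and 0.06 for Ftsj1, with rises for 1.11% and falls for 3.33% of genes. The Las1l difference was the 8th highest of 270 on Xa. Its summed level went from 11.4 to 21.7 FPKM, against 18.7 and 29.8 FPKM for Utp14a and 19.0 and 19.2 FPKM for Ftsj1. The shares of Utp14a and Las1l were higher by 19.8 and 17.2 points, a gain of 10 points or more that 15.6% of 269 genes had, and that of Ftsj1 was lower by 2.26 points (-2.26), the 7th largest loss among genes of which most were at 0 on Xi in WT. Las1l at 35.8% in XistpA stood near the 33.6% of Rad21 degron with DMSO, the highest of the reference groups, while Utp14a at 51.5% was well above its highest reference of 34.0%.

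The 27 other genes whose Xi level in WT was at least 1 FPKM, without Xist and Tsix, had a median Xi change of 0.85 in XistpA, and 7 of them rose and 1 fell. Their shares were higher for 22 and lower for 5. Ftsj1 was thus on the side of the 5. For the translation genes Ddx3x, an RNA helicase, and Eif2s3x, a subunit of an initiation factor, the Xi differences were 0.77 and 0.85 and the shares reached 53.0% and 50.9%.

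XRR KO was also set against WT, a column that the comparisons of XistpA and XRRa KO share, and Xist on Xi was 1.18 FPKM. Las1l rose on Xi from 2.12 to 9.84 FPKM (1.98) and Utp14a from 5.94 to 13.5 FPKM (1.12), where 15.9% of genes rose. Ftsj1 fell on Xi from 5.37 to 2.40 FPKM (-1.02), 1 of the 1.11% of genes that fell. The others that fell were Xist (-3.25) and Tsix (-5.99). At 0 on Xi in WT, 178 of the 270 genes could not fall. The Ftsj1 call was lost with a pseudocount of 1 (-0.91) and with columns scaled to equal median Xa FPKM (-0.89). That scaling shifted the Xa changes of this comparison by a median of 0.15.

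On Xa in XRR KO, Ftsj1 went from 13.6 to 8.67 FPKM (-0.62), Utp14a from 12.8 to 11.8 FPKM (-0.11) and Las1l from 9.24 to 10.5 FPKM (0.17), none past the size rule. Rises on Xa made up 1.11% and falls 3.70% of genes, and the median Xa change of all genes was -0.19. Ftsj1 was lower on both alleles, and its share changed from 28.3% to 21.7%, the second largest loss of 268 genes, few of which had a share to lose, since 178 of 270 were at 0 on Xi in WT. Las1l gained 29.8 points, from 18.6% to 48.4%, and Utp14a 21.6 points to 53.3%, where 18.3% of genes gained 10 points or more. The 27 other genes with Xi expression in WT had a median Xi change of 0.77, and 8 of them rose and 0 fell. Their shares were higher for 24 and lower for 3.

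**Figure D3:**
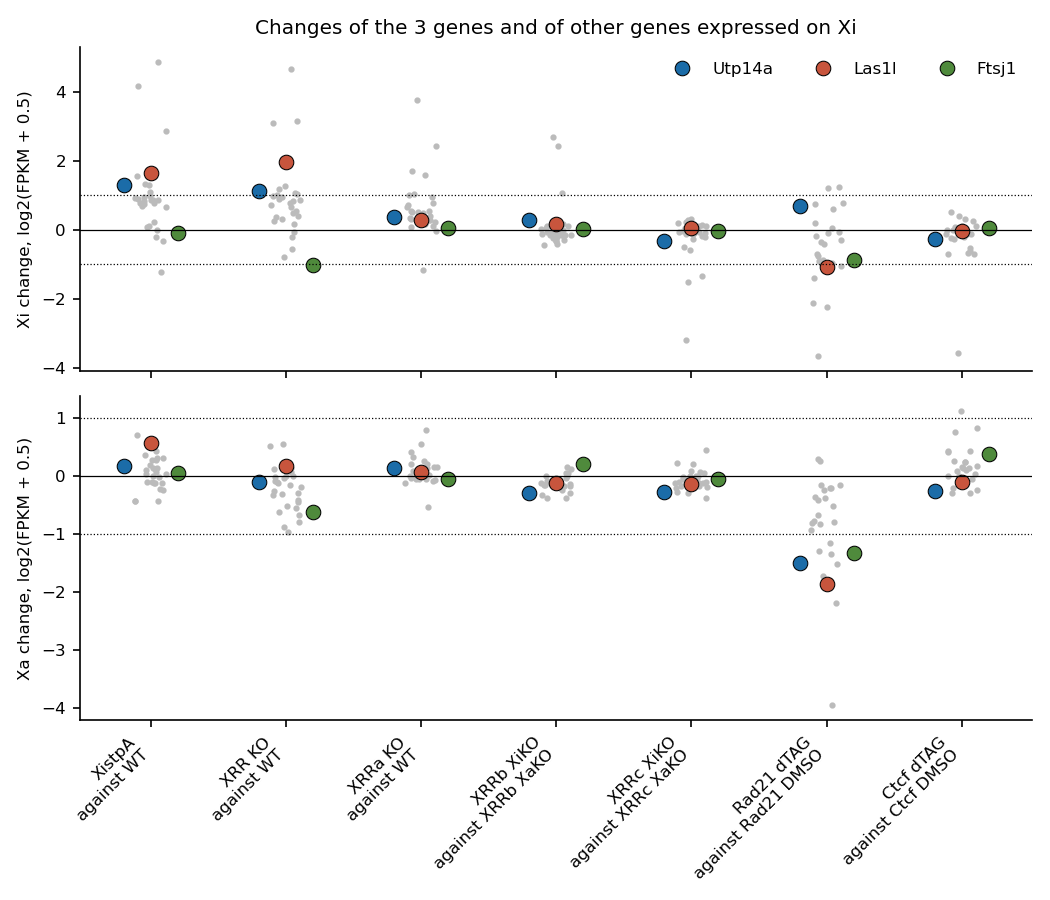
Differences of log2(FPKM + 0.5) on Xi (top) and Xa (bottom) in the 7 comparisons, for the 3 genes (large points) and for other tested genes whose Xi level in the control column was at least 1 FPKM (grey), with dotted lines at the size rule of 1. Utp14a and Las1l lie above the upper line on Xi in XistpA and XRR KO, Ftsj1 lies near 0 or below, and all 3 genes lie below the lower line on Xa in Rad21 dTAG.

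XRRa KO had 7.86 FPKM of Xist on Xi and differed little from WT for the 3 genes. The Xi level was 7.90 FPKM for Utp14a (0.38), 2.67 FPKM for Las1l (0.28) and 5.55 FPKM for Ftsj1 (0.04), none past the size rule, while 5.93% of genes rose and 1.11% fell. Shares were 35.9%, 21.4% and 29.8%, higher than in WT by 4.17, 2.80 and 1.55 points. The 27 other genes had a median Xi change of 0.52. Xa differences lay between -0.06 (Ftsj1) and 0.14 (Utp14a), where 0.37% of genes rose and 0.37% fell.

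In XRRb, XiKO was compared with XaKO, and the 3 genes stayed within the size rule. On Xi, Utp14a stood at 7.39 FPKM in XaKO and at 9.15 FPKM in XiKO (0.29), Las1l 5.60 and 6.30 FPKM (0.16) and Ftsj1 4.75 and 4.88 FPKM (0.04), where 1.92% of genes rose and 0% fell. On Xa the differences were -0.30, -0.12 and 0.21, where 0.766% of genes rose and 2.3% fell. The share of Utp14a was higher by 9.32 points, the 5th largest gain of 261 genes. That of Las1l was higher by 4.64 points, the 7th largest, while Ftsj1 was lower (-2.33 points). Of the 261 genes, 168 were at 0 on Xi in XaKO, and as many in XiKO. Of the 28 other genes at 1 FPKM or above on Xi in XaKO, 17 had higher and 10 lower shares. Their median difference was 1.01 points.

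In XRRc the Xi level of Utp14a was 9.44 (XaKO) and 7.37 FPKM (XiKO), a difference of -0.34. Las1l had 6.56 and 6.86 FPKM (0.06) and Ftsj1 4.62 and 4.48 FPKM (-0.04), so none passed the size rule, which 0.766% of genes met upwards and 1.53% downwards. On Xa the 3 genes stood at -0.27, -0.14 and -0.06, with rises and falls for 1.15% of genes each. Utp14a was thus higher in XiKO in XRRb and lower in XRRc. Between XRRb XaKO and XRRc XaKO the Xi levels differed too, with Utp14a higher by 0.33 in XRRc, Las1l by 0.21 and Ftsj1 at -0.03. In XRRc XaKO the share of Utp14a was higher by 5.90 points, with -0.25 points for Las1l and -2.20 points for Ftsj1.

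The Rad21 degron lines were compared with dTAG against DMSO, Rad21 being a cohesin subunit. Neither Rad21 nor Ctcf is in the X-linked tables, so their depletion could not be checked. On Xa all 3 genes fell, Utp14a from 10.7 to 3.47 FPKM (-1.49), Las1l from 10.4 to 2.52 FPKM (-1.85) and Ftsj1 from 9.79 to 3.59 FPKM (-1.33), where 15% of 247 genes fell and 6.48% rose. At equal median Xa FPKM, under which the Xa changes of this comparison shifted by a median of 0.37, Ftsj1 stood at -0.95 and was no longer past the size rule, and 26 genes rose and 19 fell on Xa in place of 16 and 37. The 24 other genes at 1 FPKM or above on Xi with DMSO had a median Xa change of -0.72.

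On Xi the 3 genes parted. Utp14a had 3.06 FPKM in DMSO and 5.21 FPKM in dTAG (0.68), Las1l fell from 5.26 to 2.20 FPKM (-1.09) and Ftsj1 was 2.33 and 1.05 FPKM (-0.87), where 3.24% of genes fell and 4.05% rose. Of the 247 genes, 198 were at 0 on Xi with DMSO and could not fall. Among the 24 other genes at 1 FPKM or above there, 5 fell and 2 rose, with a median Xi change of -0.39. Scaling to the same median Xa FPKM gave 1.05 for Utp14a, now past the size rule, and -0.73 for Las1l, no longer past it, with 14 rises and 5 falls among all genes in place of 10 and 8. Ftsj1 passed it with a pseudocount of 0.1 (-1.08).

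Shares do not depend on a scaling common to both alleles, and all 3 were higher with dTAG. Utp14a went from 22.2% to 60.0%, the second largest gain of 239 genes, Las1l from 33.6% to 46.7% and Ftsj1 from 19.2% to 22.6%, where 7.53% of genes gained 10 points or more. Of the 24 other genes with Xi expression, 17 had higher and 6 lower shares with dTAG, with a median difference of 4.24 points. Shares in this table were coarse, however. Of the tested genes with a share between 0 and 100%, 47.9% with DMSO and 63.0% with dTAG had a share equal, within 0.005 points, to a ratio of whole numbers with a denominator of at most 50, against 1.16% to 12.7% in the other 10 groups. For Utp14a the ratios were 2/9 and 3/5, and for Las1l with dTAG 7/15. The part of this coarseness in the differences was not tested.

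The Ctcf degron lines gave small differences with dTAG, Ctcf being the insulator protein with which cohesin forms chromatin loops. On Xi, Utp14a had 3.10 FPKM in DMSO and 2.50 FPKM in dTAG (-0.26), Las1l 2.99 and 2.94 FPKM (-0.02) and Ftsj1 3.01 and 3.17 FPKM (0.06). None passed the size rule, which 0.361% of genes met in each direction. On Xa, Ftsj1 was 3.97 and 5.31 FPKM (0.38), Utp14a 19.1 and 15.9 FPKM (-0.26) and Las1l 11.0 and 10.1 FPKM (-0.11), where 5.42% rose and 0.722% fell. The share of Ftsj1 went from 43.1% to 37.4% (-5.74 points), the 5th highest share of the table in both groups. The shares of Utp14a and Las1l changed by -0.35 and 1.07 points. Of the 25 other genes at 1 FPKM or above on Xi with DMSO, 7 had higher and 18 lower shares. Their median difference was -1.97 points. Scaling to equal median Xa FPKM shifted the Xa changes of this comparison by a median of -0.25 and left the 3 genes within the size rule.

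Of 8 other X-linked genes of the same processes, 5 had an Xa level in every group and little or no Xi level. Over all tested genes, 178 of 270 were at 0 on Xi in WT, and 12.2% had a share of 10% or more there. The list held Dkc1, the pseudouridine synthase of H/ACA ribonucleoproteins, Gnl3l, a nucleolar GTPase, Tsr2, Nkrf and Pin4 for ribosomal RNA and ribosome assembly, and Trmt2b, a methyltransferase of mitochondrial RNA, Hsd17b10, a subunit of mitochondrial RNase P, and Lage3, a subunit of the KEOPS complex that modifies tRNAs. In all 12 groups the Xi value of Dkc1 was a listed 0, beside 5.83 to 84.8 FPKM on Xa. Gnl3l, Tsr2, Hsd17b10 and Lage3 had at most 0.212 FPKM on Xi. Pin4 had a listed 0 on both alleles in all 12 groups and Nkrf in 8 of 12, so their zeros on Xi cannot be read as silencing. In XistpA 1 of 7 tested members of the list rose on Xi, beside rises for 12.2% of all tested genes. In XRR KO, XRRa KO and the other 4 comparisons 0 rose. Falls on Xi numbered 0 throughout, but none could occur. The highest control Xi level of a tested list gene was 0.404 FPKM (Trmt2b in XRRb XaKO), too low for a fall past the size rule. The list's median Xi change was 0 in each comparison, as was that of all tested genes. For the list, that median reflects the little or no Xi level of most members.

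Trmt2b was the member that rose, from 0.191 to 1.09 FPKM on Xi in XistpA (1.20), a share of 8.18% in WT and 37.9% in XistpA. With a pseudocount of 1 the change was 0.81, within the size rule. In XRR KO it had 0.771 FPKM on Xi (0.88) and a share of 33.6%, and in XRRa KO 0.740 FPKM (0.84) and 27.4%. Its Xa level of 1.23 to 2.14 FPKM outside the Rad21 table is low, and the gene failed the filter in that table. On Xa, Nkrf was 4.92 FPKM in WT, while XistpA was 1 of the 8 groups that listed it at 0. Lage3 fell in XRR KO from 76.7 to 38.0 FPKM (-1.004), a call lost with a pseudocount of 1 (-0.99) and at equal median Xa FPKM (-0.85). Dkc1 and Gnl3l fell with dTAG in Rad21 cells (-2.69 and -1.03), 2 of the 5 tested, where 15% of all genes fell. At equal median Xa FPKM Gnl3l stood at -0.66, within the size rule, as it did with a pseudocount of 1 (-0.94), and falls over all genes numbered 19 in place of 37.

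**Figure D4:**
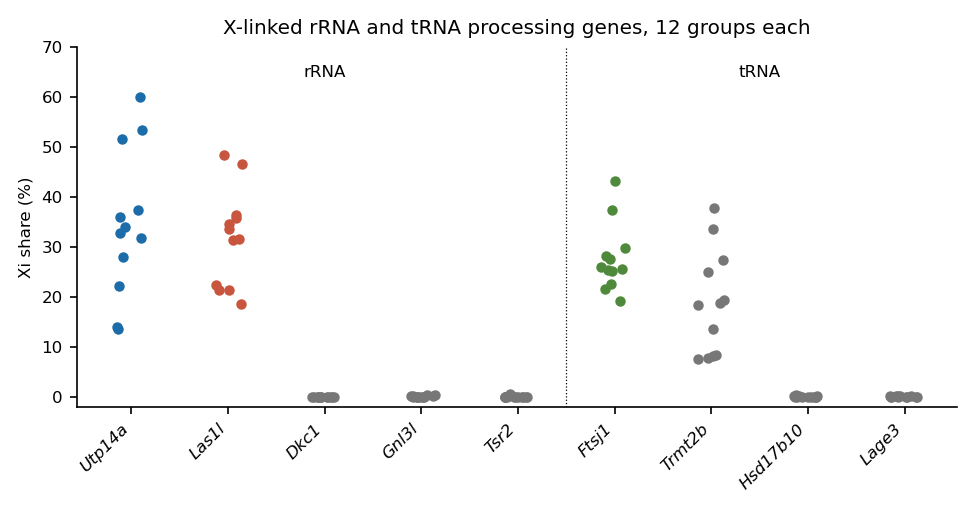
Xi share in percent for the 3 genes (coloured) and 6 other X-linked genes of ribosomal RNA (left) and tRNA (right) processing (grey), 1 point per group, spread sideways at random. Dkc1, Gnl3l, Tsr2, Hsd17b10 and Lage3 lie at or near 0 in all 12 groups, and Trmt2b spans 7.56% to 37.9%.

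The 3 genes lie apart from each other on the X, all on the proximal side of Xist in RefSeq gene order. They were the 67th (Ftsj1), 276th (Utp14a) and 584th (Las1l) of 999 placed genes, with Xist the 655th. Among the 2 nearest tested genes on each side, 10 of 12 were listed at 0 on Xi in WT, as were 178 of all 270 tested genes. The other 2 were Ocrl (2.76%) and Eda2r (0.784%). In 9 of 12 the share was under 10% in every group. Over all tested genes, those with a share of 10% or more made up 11.5% (XRRc XaKO) to 21.6% (XRR KO) in single groups. These single-group values cannot be set directly against the count of neighbours over every group.

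Near Las1l, 2 of the 4 neighbours gained 10 points or more of Xi share in both XistpA and XRR KO. Over all genes, 15.6% did so in XistpA and 18.3% in XRR KO. Zc4h2 went from a listed 0 on Xi in WT to 3.76 FPKM in XistpA (38.5%) and 1.91 FPKM in XRR KO (38.8%), and Eda2r, a receptor of the tumour necrosis factor receptor family, from 0.784% to 42.5% and 45.3%. Eda2r also reached 9.56 FPKM on Xi (13.4%) in XRRa KO, where Las1l stayed within the size rule, and went from 0.410 to 9.42 FPKM on Xi with dTAG in Rad21 cells, where Las1l fell. Amer1 and Msn on either side stayed below 1% in all groups. Beside Utp14a, Zdhhc9 reached 24.1% in XRR KO and Aifm1 and Zfp280c stayed below 1%. Beside Ftsj1, Ebp, Dynlt3 and Tspan7 stayed below 1% and Porcn reached at most 3.02%, so none of these 4 neighbours passed 10%. Genes near Ftsj1 that were not tested in all 4 tables are not covered.

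**Figure D5:**
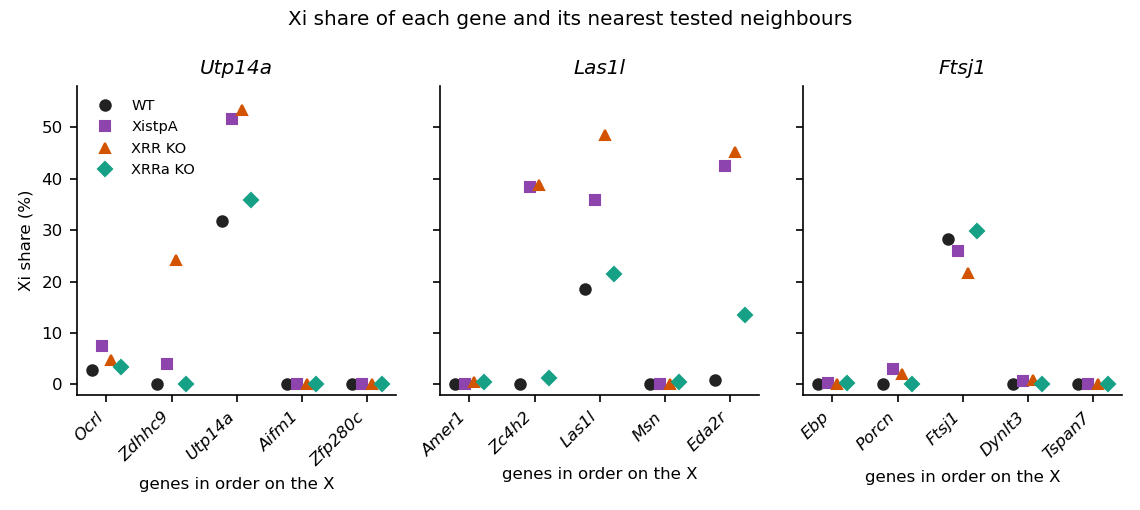
Xi share in percent for each of the 3 genes (middle of each panel) and the 2 nearest tested genes on each side, in order on the X, for WT, XistpA, XRR KO and XRRa KO. In WT the middle genes stand at 18.6% to 31.7% and all neighbours below 3%, whereas Zc4h2, Eda2r and Zdhhc9 reach 24.1% or more in XRR KO.

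The genes with the most similar Xi shares were found by the mean absolute difference over the 12 groups among 225 genes. For Utp14a they were 1810030O07Rik (4.90 points), the transcription factor gene Yy2 (4.90) and the histone demethylase gene Kdm5c (5.89). For Las1l they were the polyadenylation factor gene Cstf2 (6.03), Yy2 (6.20) and Kdm5c (6.40), and for Ftsj1 Wbp5 (7.61), Wdr45 (10.6) and Ccdc120 (11.0). Utp14a and Las1l differed by 8.18 points on average, and Ftsj1 by 15.7 points from Utp14a and 13.3 points from Las1l.

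Of the 3 genes, Utp14a shares the most sequence with others. Its closest copy, the retrogene Utp14b on chromosome 1, matched 91.7% of the longest transcript at 75.7% identity, and no copy of any of the 3 genes reached 95% identity over 50% of the length. The lincRNA gene 9530027J09Rik lies on the opposite strand and overlaps Utp14a by 5662 bases, including 401 bases of the longest transcript, and the libraries kept no strand. That gene was listed at 0.106 FPKM on Xa and 0 on Xi in WT, at 0.226 and 0.242 FPKM in XistpA, and at 1.30 FPKM or less on either allele in every group, below Utp14a throughout. Its part in the Utp14a values was not tested.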

How the data were processed

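Libraries of 32 samples in 12 groups were prepared by Smart-seq2 from polyadenylated RNA and carry no strand information, per the labels' protocols. The authors deposited FPKM values per X-linked gene for Xa and Xi in 4 tables with 24 columns. The tables are named as merged, and each column was taken to merge the samples of its group. Tools named by the submitters' processing notes are HISAT2 2.2.0, StringTie 2.1.1 and Trim Galore 0.6.4, with build mm9. How alleles were assigned is not given in the sources used. The Ctcf columns carry only a treatment name and were assigned to those samples by elimination.

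The 3 genes, the list of other processing genes and the comparisons were chosen with earlier results of these data known. Genes averaging 1 FPKM or more (Xa plus Xi) over a table were tested, which left 270, 261, 247 and 277. Changes are differences of log2(FPKM + 0.5), which understates those of low genes, and 1 or more is the size rule for rises and falls. The rule for named genes took the 3 members, list genes past that size, the 2 nearest tested genes on each side, the 3 genes closest in Xi share, Ddx3x, Eif2s3x and Xist. Values of list genes within the size rule, and 9530027J09Rik, were singled out after they had been seen. The planned limma test could not be run on merged columns. A made-up table with known folds was used to test the calls. Alternatives were pseudocounts of 0.1 and 1, no filter, a filter of 5 FPKM and equal median Xa FPKM.

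Gene order and promoters came from RefSeq (GRCm38.p6), which placed 999 of 1006 symbols. Copies and overlaps were sought with blastn 2.17.0 in GENCODE M21. Calculations used pandas 2.3.3 and numpy 2.4.6 in Python 3.11.15, and plots matplotlib 3.10.9.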

Additional observations from a re-analysis of the deposited data

Results flagged for a closer look

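Ftsj1 on Xa differed in direction between the Rad21 and Ctcf degron cells with dTAG, whose treatment time is given as 48 h for Ctcf and not given for Rad21. With dTAG against DMSO its change was -1.33 in Rad21 cells, past the size rule, and 0.38 in Ctcf cells, within it. The difference between them was not tested, since each group is 1 merged value. The median Xa change of all tested genes was -0.26 in the Rad21 table and 0.23 in the Ctcf table.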

How the results depend on the processing

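A filter decides which genes are counted and cannot move a gene's own change. Of 126 values of member changes recomputed with the 2 other pseudocounts and at equal median Xa FPKM, 119 kept their side of the size rule, and none turned from a rise to a fall or the reverse. The 7 others were all in XRR KO against WT or Rad21 dTAG against DMSO. With a pseudocount of 1, Ftsj1 on Xi in XRR KO stood at -0.91 and Las1l on Xi in Rad21 at -0.97. A pseudocount of 0.1 took Ftsj1 on Xi in Rad21 to -1.08. At equal median Xa FPKM, Ftsj1 on Xi in XRR KO stood at -0.89, and in Rad21 Utp14a on Xi at 1.05, Las1l on Xi at -0.73 and Ftsj1 on Xa at -0.95. The rises of Utp14a and Las1l on Xi in XistpA and XRR KO held with both pseudocounts and at equal median Xa FPKM.

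Of 140 counts over all genes, 44 moved by more than 1.5 times, and the cause was not tested. With a pseudocount of 0.1, rises on Xi numbered 58 in place of 33 in XistpA, 69 in place of 43 in XRR KO, 33 in place of 16 in XRRa KO, 12 in place of 5 in XRRb, 8 in place of 2 in XRRc, 18 in place of 10 in Rad21 and 6 in place of 1 in Ctcf. Falls on Xi then numbered 6 in place of 3 in XRR KO and in XRRa KO, 4 in place of 0 in XRRb, 11 in place of 4 in XRRc, 16 in place of 8 in Rad21 and 6 in place of 1 in Ctcf, and rises on Xa 2 in place of 1 in XRRa KO. With a pseudocount of 1, Xi rises numbered 3 in place of 5 in XRRb, 1 in place of 2 in XRRc and 0 in place of 1 in Ctcf, and Xi falls 2 in place of 4 in XistpA, 0 in place of 3 in XRRa KO and 3 in place of 8 in Rad21. On Xa, XRR KO then had 1 rise in place of 3 and Ctcf 1 fall in place of 2. Without a filter, rises on Xa numbered 5 in place of 3 in XRR KO, 4 in place of 1 in XRRa KO and 4 in place of 2 in XRRb, falls on Xa 2 in place of 1 in XRRa KO, 9 in place of 3 in XRRc and 4 in place of 2 in Ctcf, and Xi rises 2 in place of 1 in Ctcf. With a filter of 5 FPKM, which tests fewer genes, rises on Xa numbered 1 in place of 3 in XistpA, XRR KO and XRRc, 0 in place of 1 in XRRa KO, 7 in place of 16 in Rad21 and 5 in place of 15 in Ctcf. Falls on Xa then numbered 1 in place of 9 in XistpA, 0 in place of 1 in XRRa KO, 0 in place of 6 in XRRb and 1 in place of 2 in Ctcf, and Xi rises 1 in place of 2 in XRRc. At equal median Xa FPKM, Rad21 had 26 rises in place of 16 and 19 falls in place of 37 on Xa and 5 falls in place of 8 on Xi, and XRR KO 6 rises in place of 3 on Xa.

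Scaling to equal median Xa FPKM shifted the Xa changes of XRRb by a median of 0.14. No paired analysis was possible because each deposited column merges all samples of its group, and for the same reason no sample could be left out in turn. Depth is unknown, so no interval is given, and low Xi values such as those of Trmt2b carry an unknown counting error.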
